A study of Mus musculus with 12 samples.

Results

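The receptors of the common gamma chain family were described here in Th9 cells, the IL-9-producing subset of CD4+ T helper cells, from the 8 genes of the family (*Il2ra*, *Il2rb*, *Il2rg*, *Il4ra*, *Il7r*, *Il9r*, *Il15ra*, and *Il21r*), picked by symbol from the 32051 genes measured. The RNA-seq data held 12 libraries in 4 groups of 3 replicates. Naive CD4+ T cells isolated from C57BL/6J mice were stimulated with plate-bound anti-CD3 and 1 μg/mL soluble anti-CD28 and polarized with 10 ng/mL IL-4, 1 ng/mL TGF-β, and antibodies against IL-12 and IFN-γ, and RNA was taken on day 4. All 4 groups shared this polarization and differed in the compounds added: the DMSO vehicle (control Th9 cells), 10 μM EpA (EpA-Th9 cells, EpA being a cyclic peptide from an endophytic fungus), 5 μM fatostatin (an inhibitor of SREBP1), or EpA and fatostatin together. The doses are those given in the paper for Th9 cells treated with these compounds, since the sample labels name the compounds only. IL-4, a ligand of the family, was thus present in every culture. The samples are called independent in the paper, but neither it nor the labels say whether the replicates of a group came from separate mice or from separate cultures. The p-values measure the spread between these libraries, part or all of which may be technical. Within a group it was as small as 0.154% of the mean (*Il2rb* with fatostatin).

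The common gamma chain, encoded by *Il2rg*, is the subunit shared by the receptors for IL-2, IL-4, IL-7, IL-9, IL-15, and IL-21. A private chain binds each cytokine (IL-4Rα, IL-7Rα, IL-9R, IL-21R), whereas IL-2 and IL-15 share the β chain encoded by *Il2rb* and add an α chain of their own, *Il2ra* (CD25) or *Il15ra*. The receptors signal through JAK1, bound to the private or β chain, and JAK3, bound to the γ chain, and then mainly through STAT5, STAT6 for IL-4, and STAT3 for IL-21. In T cells IL-2 drives expansion after stimulation, IL-7 maintains resting cells, IL-4 is an inducing signal of Th9 cells, and IL-9 is their product.

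The members lie on 5 chromosomes, and 2 pairs of them are neighbors (GENCODE annotation of GRCm38). *Il2ra* (chr2:11642807-11693193) ends 12.1 kb before *Il15ra* (chr2:11705290-11734317), and *Il4ra* (chr7:125552120-125579474) ends 24.0 kb before *Il21r* (chr7:125603429-125633570), in each case on the same strand with 0 annotated genes between. *Il2rb* (chr15:78479256-78495271) and *Il7r* (chr15:9505788-9530176) lie far apart on the same chromosome, with *Il9r* at chr11:32187541-32200279 and *Il2rg* at chrX:101264378-101268255. *Il2rg* shares 728 of its 2387 exon bases with the overlapping gene model *Gm20489* on the same strand, and *Il4ra* shares 571 of 6002 with *Gm44876* on the opposite strand. Neither gene model has values in the table. Reads of the *Il2rg* stretch could belong to either gene under any strand setting, and those of the *Il4ra* stretch could do so if the counting ignored strand, a setting not given in the sources used here.

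The 250 bases before the transcription start are shown for *Il2ra*, the most abundant member and one that rose with EpA, for *Il9r*, the member that fell furthest, and for *Il2rg*, the shared chain that did not pass the test of EpA. The sequences are from RefSeq (GRCm38.p6), 5′ to 3′ on the strand of the gene, at chr2:11642542-11642791 (plus strand), chr11:32200280-32200529 (minus strand), and chrX:101268256-101268505 (minus strand). Capitals mark matches to the motifs searched on both strands: TTCNNNGAA (STAT5 type), TTC and GAA with 4 bases between them (STAT6 type), GGGA and CCC with 3 bases between them (NF-kB type), TGANTCA (AP-1 type), GTAAACA (FOXO type), and TGTGGT (RUNX type).
*Il2ra*: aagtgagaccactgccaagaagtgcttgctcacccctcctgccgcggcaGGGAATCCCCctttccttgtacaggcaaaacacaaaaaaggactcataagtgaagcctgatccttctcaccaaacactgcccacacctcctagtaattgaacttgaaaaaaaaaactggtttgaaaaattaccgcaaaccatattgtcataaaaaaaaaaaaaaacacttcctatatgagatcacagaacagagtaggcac
*Il9r*: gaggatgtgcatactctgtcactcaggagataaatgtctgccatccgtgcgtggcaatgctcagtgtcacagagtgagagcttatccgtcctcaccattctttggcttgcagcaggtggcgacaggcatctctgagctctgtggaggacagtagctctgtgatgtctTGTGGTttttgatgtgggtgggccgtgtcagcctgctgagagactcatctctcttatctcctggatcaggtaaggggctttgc
*Il2rg*: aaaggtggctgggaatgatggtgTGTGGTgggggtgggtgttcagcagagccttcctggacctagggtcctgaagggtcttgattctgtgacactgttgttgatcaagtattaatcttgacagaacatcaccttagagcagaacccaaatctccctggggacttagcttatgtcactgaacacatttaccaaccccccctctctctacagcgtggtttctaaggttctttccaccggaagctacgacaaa
The *Il2ra* window held 1 match, of the NF-kB type, which 4.77% of 32851 promoter windows of this length hold. The *Il9r* and *Il2rg* windows held 1 match each, of the RUNX type, found in 14.0% of all windows. Promoter sequence was at hand for 7 of the 8 members, and over these 7 the STAT5 type was matched in 1 (*Il7r*) and the STAT6 type in 0, with 7.02% and 5.85% of all windows holding them. A match describes the letters only.

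Levels are given in FPKM, which scales reads by the exon length of the gene and the depth of the library and so allows levels of different genes to be set side by side. In control Th9 cells the α chain of the IL-2 receptor was the most abundant member (*Il2ra*, 693 ± 8.18 FPKM, mean ± SD, n = 3), followed by *Il2rb* at 253 ± 3.17 and *Il4ra* at 118 ± 1.42. *Il21r* (51.4 ± 0.685 FPKM) and *Il2rg* (50.8 ± 1.56) did not differ beyond their spread, with a ratio of *Il21r* to *Il2rg* between 0.989 and 1.05 over the 3 libraries. *Il7r* stood at 15.3 ± 0.686 FPKM, and *Il9r* (1.41 ± 0.0638) and *Il15ra* (0.900 ± 0.179) were close to 1. At the depth of these libraries, 36019740 to 43656682 reads on genes, *Il2ra* rested on 144587 to 225103 reads per library, *Il9r* on 117 to 324, and *Il15ra* on 74 to 192, so the last 2 carry the largest errors.

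**Figure D1:**
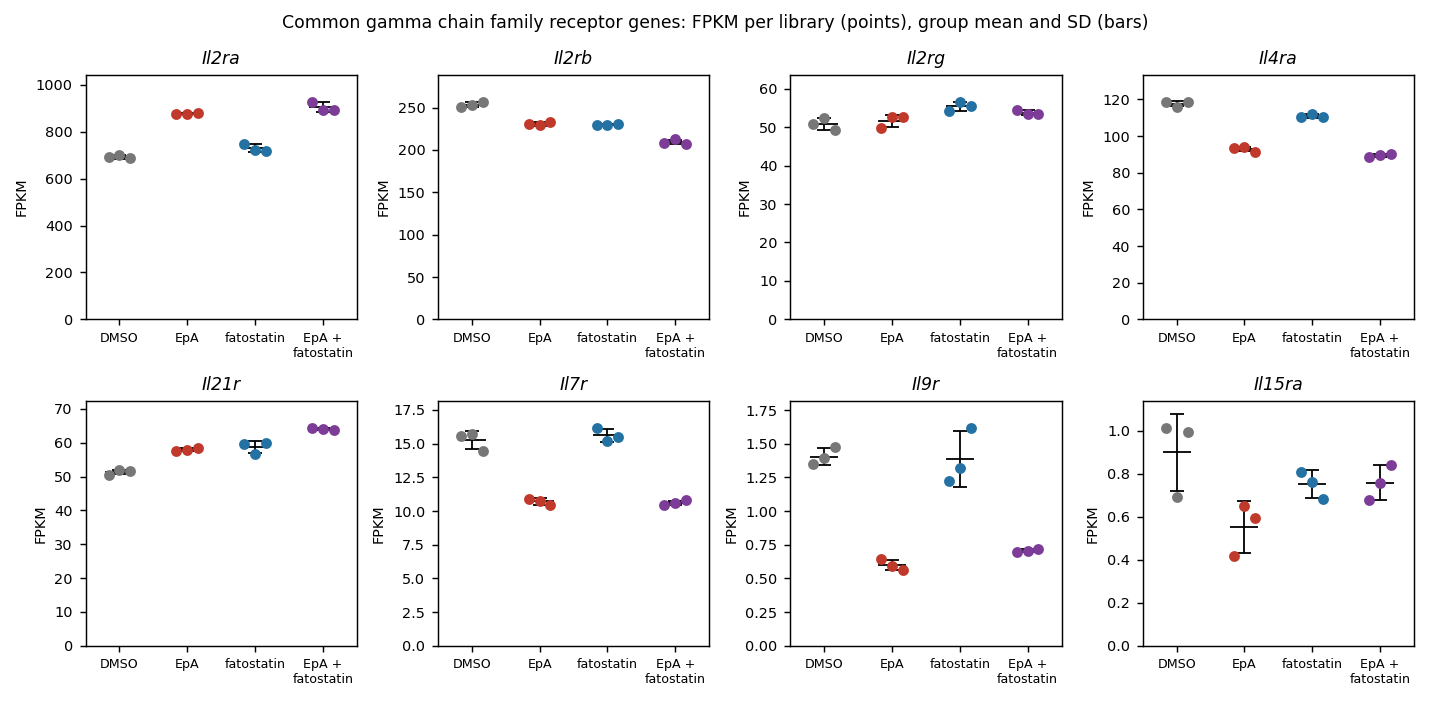
FPKM of the 8 members (vertical axes from 0, a scale for each gene) in each of the 12 libraries (points) by group, with bars for the group mean and SD (n = 3). *Il4ra*, *Il7r*, and *Il9r* sit lower in both groups that received EpA than in both groups that did not, *Il2ra* sits higher, and *Il2rg* lies between 49.2 and 56.6 FPKM in every library.

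The first question was which receptor chains differ when Th9 cells are polarized with EpA. *Il2ra* and *Il21r* rose, *Il2rb*, *Il4ra*, *Il7r*, *Il9r*, and *Il15ra* fell, and *Il2rg* did not pass the test. These 7 of 8 members stand beside a background of 27.4% of 13733 tested genes at an adjusted p below 0.05 (limma on log2(FPKM + 0.1), Benjamini-Hochberg), 14.3% higher and 13.1% lower. With a fold change of at least 1.5 as well, 2 members passed (*Il9r* and *Il15ra*, both lower), against 3.38% of all tested genes. The median log2 fold change was -0.24 over the 8 members and 0.0023 over all tested genes. All 8 members exceeded the minimum of 0.1 FPKM. The share called was larger among genes at higher levels, at 34.9% of the 10298 that averaged 1 FPKM or more.

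*Il2ra* encodes the α chain that gives the IL-2 receptor its high affinity. Its FPKM were 692, 702, and 686 in the DMSO libraries and 876, 875, and 878 in the EpA libraries. The groups did not overlap, and the rise was 1.26-fold (log2 0.34, SE 0.021, limma adjusted p = 6.73e-07). *Il2rb*, the signaling chain shared by IL-2 and IL-15, went the other way, from 251, 253, and 257 FPKM in DMSO to 230.2, 229, and 233 with EpA. Every EpA library lay below every DMSO library, and the fold change was small at 0.910 (95% interval 0.889 to 0.932, limma adjusted p = 6.77e-05).

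For the shared γ chain *Il2rg*, the DMSO libraries held 50.7, 52.4, and 49.2 FPKM and the EpA libraries 49.7, 52.5, and 52.6. The groups overlapped, and the fold change of 1.02 had a 95% interval of 0.973 to 1.06 (limma adjusted p = 0.598). A change of the γ chain by EpA beyond this interval was not seen, whereas the chains that pair with it moved in both directions.

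*Il4ra*, the receptor chain for the IL-4 that was added to the cultures, fell from 119, 116, and 118 FPKM in DMSO to 93.5, 93.8, and 91.6 with EpA. The highest EpA library lay below the lowest DMSO library, and the fold change was 0.789 (log2 -0.34, SE 0.016, limma adjusted p = 1.13e-07). Its neighbor *Il21r*, the receptor of a cytokine that promotes B cell help and T cell effector functions, rose on the same stretch of chromosome, from 50.6, 51.8, and 51.7 FPKM to 57.7, 57.9, and 58.6. These groups did not overlap either, and the rise was 1.13-fold (95% interval 1.09 to 1.17, limma adjusted p = 1.01e-04).

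*Il7r* encodes the receptor of IL-7, the survival cytokine of naive and memory T cells, and is known to fall when T cells are stimulated. It stood at 15.6, 15.7, and 14.5 FPKM in DMSO and at 10.9, 10.8, and 10.4 with EpA. The fold change was 0.703 (log2 -0.51, SE 0.036, limma adjusted p = 2.19e-06), and the groups did not overlap. In bulk RNA, fewer cells with a transcript and less of it per cell cannot be told apart.

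*Il9r*, the receptor of the cytokine that defines these cells, fell furthest. Its FPKM were 1.35, 1.40, and 1.47 in DMSO and 0.640, 0.594, and 0.563 with EpA, or 244, 282, and 317 reads against 126, 117, and 118. The fold change was 0.464 (log2 -1.11, SE 0.10, limma adjusted p = 1.59e-05), and it came out as a log2 of -0.59 when a pseudocount of 1 in place of 0.1 was added to these low values. *Il9* itself went from 54.6 ± 3.38 to 640 ± 17.5 FPKM (log2 3.55, limma adjusted p = 2.18e-11), so the ligand and its receptor moved in opposite directions in the same libraries.

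*Il15ra*, which presents IL-15 to neighboring cells, held 1.01, 0.694, and 0.993 FPKM in DMSO and 0.418, 0.649, and 0.595 with EpA. The groups were separated only by the gap between the lowest DMSO library and the highest EpA library, and the spread within a group reached 21.8% of its mean. The fold change of 0.654 had a wide interval (0.505 to 0.847, limma adjusted p = 0.0195). The call was lost without DMSO replicate 1, DMSO replicate 3, or EpA replicate 1 (limma adjusted p = 0.0739, 0.0732, and 0.0745) and when only these 2 groups were fitted (0.0619). Without any 1 of these 3 libraries its log2 fold change was between -0.54 and -0.45, and with a pseudocount of 1 it was -0.29, each short of 1.5-fold. The larger pseudocount shrinks the fold changes of such low genes by arithmetic.

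**Figure D2:**
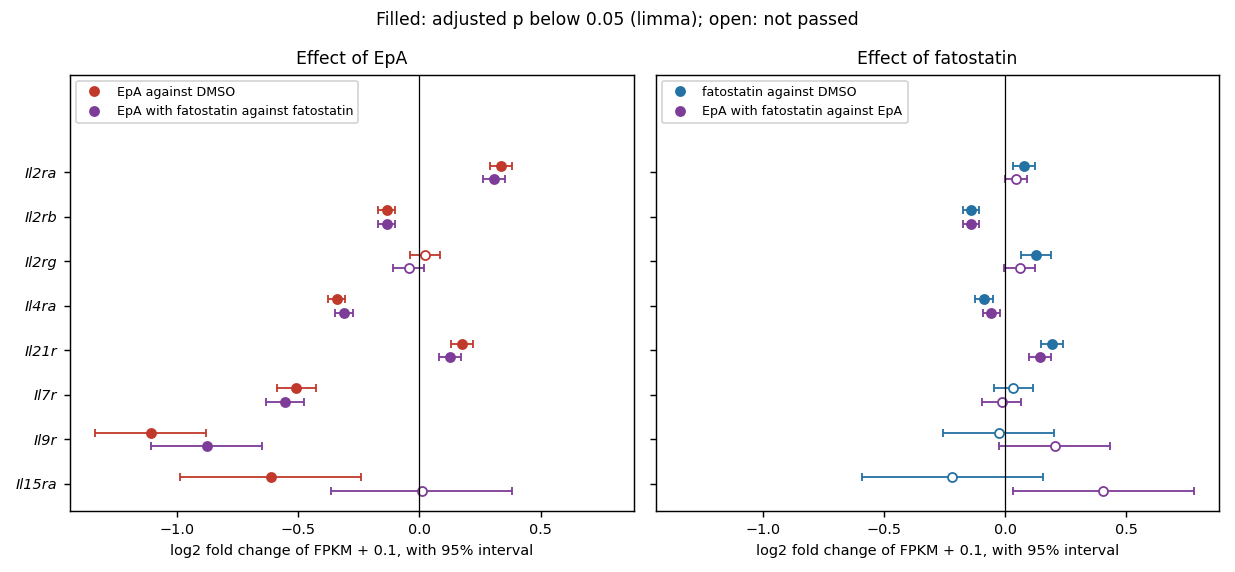
Log2 fold change of FPKM + 0.1 (horizontal axis) of each member for EpA (left, without and with fatostatin) and for fatostatin (right, without and with EpA), with 95% intervals from limma (n = 3 libraries per group). Filled points passed an adjusted p of 0.05; the effects of EpA on *Il2ra*, *Il2rb*, *Il4ra*, *Il21r*, *Il7r*, and *Il9r* lie on the same side of 0 in both comparisons, whereas *Il15ra* is at -0.61 without fatostatin and 0.0091 with it.

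EpA was also compared in the presence of fatostatin, in 6 libraries that share none with the comparison above. *Il2ra* and *Il21r* rose, *Il2rb*, *Il4ra*, *Il7r*, and *Il9r* fell, and *Il2rg* and *Il15ra* did not pass. The 6 members passed in both comparisons with the same sign, as did 20.2% of all tested genes. The background was 29.5% of tested genes (16.2% higher, 13.3% lower), and 1 member, *Il9r*, also exceeded 1.5-fold, against 3.75% of genes. With a pseudocount of 1 its log2 fold change was -0.48, short of 1.5-fold, and the count was 0. That setting shrinks the fold changes of genes near 1 FPKM by arithmetic. The median log2 fold change was -0.090 over the members and 0.012 over all tested genes.

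With fatostatin in the medium, *Il2ra* went from 749, 724, and 719 FPKM to 927, 893, and 893 when EpA was added (1.24-fold, limma adjusted p = 1.11e-06). *Il4ra* went from 110.3, 112, and 110.2 FPKM to 88.6, 89.5, and 90.0 (0.806-fold, limma adjusted p = 1.75e-07). *Il7r* went from 16.2, 15.2, and 15.5 FPKM to 10.5, 10.6, and 10.8 (0.681-fold, limma adjusted p = 9.24e-07). In each of these genes every library with both compounds lay outside the range of the fatostatin libraries. *Il9r* fell from 1.22, 1.32, and 1.62 FPKM to 0.694, 0.705, and 0.715 (0.545-fold, limma adjusted p = 8.27e-05). The smaller changes were 0.910-fold for *Il2rb* and 1.09-fold for *Il21r* (limma adjusted p = 6.03e-05 and 9.60e-04). For *Il15ra* the fold change was 1.01 with an interval of 0.777 to 1.30 (limma adjusted p = 0.981), with overlapping libraries.

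Whether fatostatin alone moved the receptor genes was asked against DMSO. *Il2ra*, *Il2rg*, and *Il21r* rose, *Il2rb* and *Il4ra* fell, and *Il7r*, *Il9r*, and *Il15ra* did not pass. The background was 14% of tested genes (7.69% higher, 6.31% lower), and 0 of the 5 members that passed reached 1.5-fold, against 1.86% of genes. This comparison shares the DMSO libraries with that of EpA, so the sides are given next to each other without a test of their likeness.

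*Il21r* had the largest fatostatin rise of the family, to 59.5, 56.8, and 59.9 FPKM from 50.6, 51.8, and 51.7 (1.14-fold, limma adjusted p = 1.02e-04). *Il2rb* fell to 229, 229.7, and 230.1 FPKM (0.907-fold, limma adjusted p = 1.01e-04), a level that overlapped that of EpA alone. *Klrd1*, a marker of NK cells, in which *Il2rb* is high, fell in the same libraries (0.735-fold, limma adjusted p = 0.0143). The other tested NK marker, *Eomes*, did not pass (0.999-fold, limma adjusted p = 0.998). The part of the *Klrd1* shift was not tested. *Il2rg* rose to 54.2, 56.6, and 55.5 FPKM, above all 3 DMSO libraries (1.09-fold, limma adjusted p = 0.0123). The remaining changes were small, at 1.05-fold for *Il2ra* and 0.941-fold for *Il4ra* (limma adjusted p = 0.0306 and 0.00420). The call of *Il2ra* was lost without either DMSO replicate 1 or 3 or either fatostatin replicate 1 or 2 (limma adjusted p up to 0.107). It was also lost with no minimum (0.0875), TPM scaling (0.0808), no mean trend (0.0942), and only these 2 groups fitted (0.0712). That of *Il2rg* was lost without DMSO replicate 3 or fatostatin replicate 2 (0.0525 and 0.0507). So 3 members passed without either of the latter libraries, beside 10.5% and 11.1% of all tested genes. For *Il7r* the fatostatin fold change of 1.02 had an interval of 0.968 to 1.08 (limma adjusted p = 0.625), and for *Il9r* that of 0.982 had one of 0.838 to 1.15 (limma adjusted p = 0.915).

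When fatostatin was added to EpA, *Il21r* rose and *Il2rb* and *Il4ra* fell, 3 of 8 members against a background of 16% (9.22% higher, 6.79% lower). No member reached 1.5-fold in this comparison, where 1.99% of genes did. *Il21r* went to 64.3, 64.1, and 63.9 FPKM (1.10-fold over EpA, limma adjusted p = 8.54e-04) and *Il2rb* to 208, 212, and 207 (0.907-fold, limma adjusted p = 8.60e-05), beside a fall of *Klrd1* (0.703-fold, limma adjusted p = 0.00626). Again *Eomes* did not pass (0.970-fold, limma adjusted p = 0.920). *Il4ra* changed by 0.961-fold (limma adjusted p = 0.0367), a call lost without EpA replicate 1 or 2 or any 1 of the 3 libraries with both compounds (adjusted p up to 0.121), and also with TPM scaling (0.0878), without the mean trend (0.121), and with only these 2 groups fitted (0.0952). *Il9r* was at 0.694 to 0.715 FPKM against 0.563 to 0.640 with EpA alone, without overlap, but did not pass (log2 0.20, limma adjusted p = 0.224).

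Cells with both compounds were also set against DMSO. Of the members 3 were higher and 4 lower, with *Il15ra* not passing (0.865-fold, limma adjusted p = 0.386), beside a background of 35.5% (19.7% higher, 15.8% lower). The members past 1.5-fold were 1 in number, *Il9r* (0.535-fold), against 5.64% of genes, and 0 with a pseudocount of 1, where its log2 fold change was -0.50. A pseudocount of this size shrinks the fold changes of such low genes by arithmetic. *Il21r* reached 1.25-fold and *Il2rb* 0.826-fold (limma adjusted p = 5.50e-07 and 1.39e-07), the highest and the lowest of the 4 group means of these genes. The 2 tested NK markers were lower past 1.5-fold (median log2 -1.12), *Klrd1* at 1.94 against 4.88 FPKM in DMSO. The part of these falls was not tested. *Il2rg* was 1.06-fold higher (limma adjusted p = 0.0423), a call lost without DMSO replicate 1 or 3 or any 1 of the libraries with both compounds (adjusted p up to 0.158). It was also lost with no minimum (0.0632), median-ratio scaling (0.0669), no mean trend (0.0838), and only these 2 groups fitted (0.0528).

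The interaction of the compounds, that is, how far the EpA effect in fatostatin medium departed from that in DMSO, called 0 of 8 members, and 1 at an unadjusted p below 0.05 (*Il15ra*, log2 difference 0.62, unadjusted p = 0.0248, limma adjusted p = 0.554), beside 7.89% of all tested genes at that unadjusted p. With voom of limma on recovered reads the count was also 0. Of all tested genes 0.0437% were called (0.0364% higher, 0.00728% lower), and 0% with at least 1.5-fold. The intervals were narrow for the abundant chains: the ratio of the EpA effects was 0.936 to 1.02 for *Il2ra*, 0.967 to 1.03 for *Il2rb*, and 0.986 to 1.06 for *Il4ra*. They were wide for *Il9r* (0.938 to 1.47) and *Il15ra* (1.07 to 2.22). In a fit with an additive term for each compound, chosen after the data were seen, *Il2rb* changed 0.910-fold with EpA and 0.907-fold with fatostatin, *Il21r* 1.11-fold and 1.12-fold, and *Il7r* 0.692-fold and 1.01-fold.

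The opposite moves of chains changed the proportions between receptor transcripts within a library, given as a description without a test. The ratio of *Il2ra* to *Il2rb*, the α and β chains of the IL-2 receptor, was 2.74 ± 0.0578 in DMSO, 3.18 ± 0.0756 with fatostatin, 3.80 ± 0.0252 with EpA, and 4.33 ± 0.130 with both (mean ± SD, n = 3). The 4 groups did not overlap. The ratio of *Il21r* to its neighbor *Il4ra* was 0.436 ± 0.0102, 0.530 ± 0.0201, 0.625 ± 0.0131, and 0.718 ± 0.00845 in the same order of groups, again without overlap. *Il4ra* per *Il2rg* went down in that order, from 2.32 ± 0.0952 through 1.98 to 2.03 over the fatostatin libraries and 1.80 ± 0.0704 to 1.66 ± 0.0329.

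**Figure D3:**
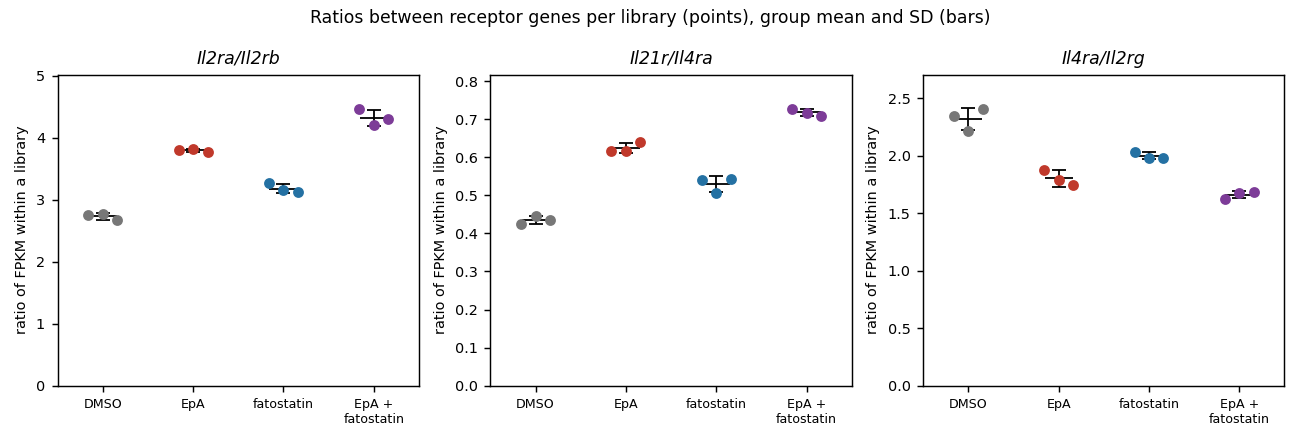
Ratios of FPKM between receptor genes within each library (points; vertical axes from 0) by group, with bars for the mean and SD (n = 3). *Il2ra* per *Il2rb* runs from 2.67 to 2.78 in the DMSO libraries and from 4.21 to 4.46 with both compounds, and *Il21r* per *Il4ra* from 0.426 to 0.446 and from 0.710 to 0.726.

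Of the 6 ligands of the family, 3 exceeded the minimum level. *Il9* and *Il21* rose with EpA, and *Il4* did not pass (8.71 ± 0.389 against 8.78 ± 0.233 FPKM, limma adjusted p = 0.897). *Il21* stood at 1.27 ± 0.108 FPKM in DMSO and 3.28 ± 0.226 with EpA (log2 1.31, limma adjusted p = 1.11e-06), so that it rose together with its receptor gene. With fatostatin alone *Il9* rose (log2 0.28, limma adjusted p = 0.0065), *Il4* fell to 7.15 ± 0.365 FPKM (log2 -0.28, limma adjusted p = 0.0053), and *Il21* did not pass. *Il2*, *Il7*, and *Il15* were below 0.1 FPKM in each group mean.

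Among genes whose products share a chain with a member, *Il13*, whose protein signals through IL-4Rα, rose with EpA from 8.82 ± 0.135 to 15.9 ± 1.87 FPKM (log2 0.84, limma adjusted p = 5.2e-06). The receptor genes *Il13ra1* and *Il13ra2* were below 0.1 FPKM in each group mean. *Crlf2*, which forms the TSLP receptor together with IL-7Rα, fell with its partner from 9.94 ± 0.241 to 8.10 ± 0.199 FPKM (log2 -0.29, limma adjusted p = 0.0017). With fatostatin *Crlf2* fell (log2 -0.20) and *Il13* rose (log2 0.33, limma adjusted p = 0.024 and 0.0074), while *Il7r* did not pass.

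Of 6 JAK and STAT genes of the family, 2 rose with EpA, 2 fell, and 2 did not pass, with a median log2 fold change of -0.064, beside 14.3% of all tested genes that rose and 13.1% that fell. *Stat3*, the main transducer of IL-21, rose from 60.6 ± 0.917 to 67.4 ± 1.22 FPKM (log2 0.15, limma adjusted p = 3.4e-04), and *Stat6*, that of IL-4, by 0.09 (0.0074). *Jak3* and *Stat5b* fell by 0.07 and 0.10 on the log2 scale (limma adjusted p = 0.035 and 0.0073), and *Jak1* and *Stat5a* did not pass. With fatostatin, 2 of the 6 rose, beside 7.69% of all tested genes: *Stat5a* from 50.5 ± 0.480 to 57.2 ± 1.22 FPKM (log2 0.18, limma adjusted p = 6.9e-04) and *Jak3* (log2 0.08; 0.019).

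**Figure D4:**
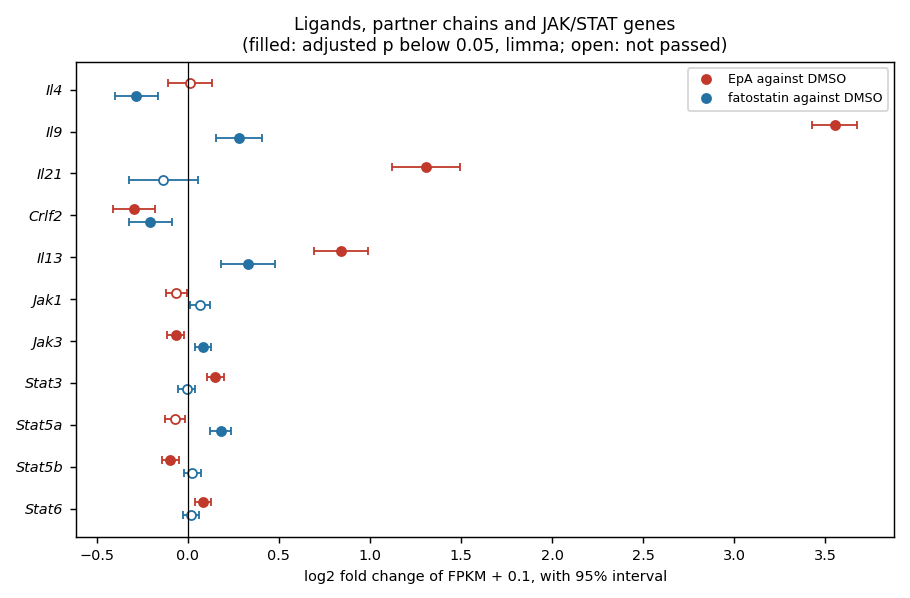
Log2 fold change of FPKM + 0.1 (horizontal axis) against DMSO, with 95% intervals from limma (n = 3 libraries per group), for the ligands, partner genes, and JAK and STAT genes above 0.1 FPKM. *Il9* lies at 3.55 and *Il21* at 1.31 with EpA, whereas the 6 JAK and STAT genes lie between -0.095 and 0.18 with either compound.

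The EpA counts of the next lists stand beside the same shares of all tested genes, 14.3% higher and 13.1% lower. Of 12 genes known to respond to STAT5, 2 rose, 5 fell, and 5 did not pass (median log2 -0.089). *Prdm1*, which encodes the repressor Blimp-1, was the only one past 1.5-fold, from 1.06 ± 0.0911 to 0.614 ± 0.0611 FPKM (log2 -0.70, limma adjusted p = 7.8e-04). Of 7 genes for phosphatases and SOCS-type brakes on the receptors, 1 fell (*Cish*, log2 -0.17) and 6 did not pass, a share near that of all genes. This list overlaps that of the STAT5-responsive genes, and *Cish* is counted in both. Of 9 transcription factors known to act on *Il2ra* or *Il7r*, 4 fell and 0 rose with EpA, 2 of them past 1.5-fold: *Klf2*, a quiescence factor, from 2.86 ± 0.389 to 1.24 ± 0.188 FPKM (log2 -1.15, limma adjusted p = 4.8e-04), and *Foxp3*, the regulator of regulatory T cells, from 1.87 ± 0.0796 to 1.20 ± 0.168 (log2 -0.60, limma adjusted p = 0.0015). With fatostatin 3 of the 9 rose, 2 fell, and 4 did not pass, beside 7.69% and 6.31% of all tested genes that rose and fell, and 0 of the 9 were past 1.5-fold.

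For comparison, 23 of 29 other cytokine receptor genes were above the minimum, of which 5 rose, 5 fell, and 13 did not pass with EpA (median log2 -0.017). *Il17rb*, the IL-25 receptor, fell from 5.04 ± 0.224 to 1.62 ± 0.0435 FPKM (log2 -1.58, limma adjusted p = 1.2e-08), and *Csf2rb*, the shared β chain of the IL-3 and GM-CSF receptors, rose from 0.195 ± 0.0365 to 0.378 ± 0.0407 (log2 0.70, limma adjusted p = 0.0073).

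The labelled cell type was checked against marker genes. All 6 CD4 T cell markers were present, with DMSO means from 37.3 FPKM for *Cd28* to 154 for *Lck*, and their summed level was 574 to 585 FPKM in DMSO, 503 to 508 with EpA, 557 to 574 with fatostatin, and 481 to 485 with both. *Cd4* rose with EpA (log2 0.15) and the other 5 fell, *Cd28* by 0.53 and *Cd3e* by 0.33 on the log2 scale, beside falls of 0.34 for *Il4ra* and 0.51 for *Il7r*. Among the 4 markers of NK cells, a cell type with high *Il2rb*, *Klrd1* carried nearly the whole sum of 4.87 to 5.32 FPKM in DMSO and 2.59 to 3.18 with EpA, and *Ncr1* and *Klrb1c* were under the minimum. *Klrd1* fell 0.579-fold with EpA and *Eomes*, at 0.220 FPKM in DMSO, 0.535-fold (limma adjusted p = 1.96e-04 and 0.00779). Of the 2 CD8 T cell markers, *Cd8b1* did not pass (7.60 against 7.47 FPKM), whereas *Cd8a* fell with EpA from 1.81 to 0.802 FPKM (0.474-fold, limma adjusted p = 2.85e-05) and from 1.52 with fatostatin to 0.491 with both (0.363-fold, limma adjusted p = 2.57e-06).

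Regulatory T cells carry high *Il2ra*, and 2 of their 3 markers fell with EpA while *Il2ra* rose. *Foxp3* fell 0.658-fold and *Ikzf2* 0.700-fold, from 1.16 to 0.779 FPKM (limma adjusted p = 0.0015 and 0.0038). The third, *Ctla4*, which stimulated T cells express as well, rose from 227 to 237 FPKM (1.04-fold, limma adjusted p = 0.0270) and made up nearly all of the sum of the list, 230 to 303 FPKM over the libraries. Of the 4 Th9 markers, *Il9* and *Batf* rose with EpA (*Batf* from 75.5 to 95.3 FPKM, limma adjusted p = 5.20e-06). *Irf4*, the highest of them in DMSO, fell from 156 to 143 FPKM (0.918-fold, limma adjusted p = 0.00185), and *Spi1* was under the minimum.

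The remaining lists were low. The 5 B cell markers summed to 5.20 to 8.68 FPKM over the libraries, mostly *Cd79b*, and *Cd79a* fell with EpA from 0.791 to 0.489 (limma adjusted p = 0.0127). The 6 myeloid markers summed to 1.27 to 2.90 FPKM, and *Lyz2* rose from 0.0371 to 0.186 with EpA and to 0.200 with fatostatin (limma adjusted p = 0.00934 and 0.0113). The 4 dendritic cell markers summed to 0.452 to 0.656 FPKM with *Siglech* at 0, and *Xcr1* fell from 0.195 to 0.0847 (limma adjusted p = 0.0338). The 5 mast cell or basophil markers summed to 0.906 to 1.92 FPKM, and *Mcpt8* rose from 0.355 to 0.771 (limma adjusted p = 0.0492). The 3 ILC2 markers summed to 3.90 to 4.66 FPKM, and 0 of the 2 tested passed with EpA. The part of these marker shifts in the results on the receptor genes was not tested.

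The genes whose levels followed a member most closely over the 12 libraries were sought among 10297 genes that averaged 1 FPKM or more, for the 3 members with the largest range of group means among those that averaged 1 FPKM or more themselves, which leaves out *Il15ra* at 0.741. They are given by Pearson's r as a description, since the libraries share the 4 conditions. *Il9r* was followed by *Ndfip1* (r = 0.989), *Arhgap45* (0.985), and *Sting1* (0.985). *Il7r* was followed by *Cxcr3* (0.994), *Arhgef6* (0.991), and *Znrf2* (0.989), and *Il4ra* by *Itgb7* (0.997), *Pou2af1* (0.993), and *Atp2a3* (0.991). *Cxcr3*, a chemokine receptor of Th1 cells, stood at 7.02, 2.60, 7.41, and 2.56 FPKM in DMSO, EpA, fatostatin, and both, and *Itgb7*, an integrin chain for homing to the gut, at 80.8, 58.6, 73.1, and 54.9.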

How the data were processed

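RNA-seq was measured in 12 libraries of mouse Th9 cells, in 4 groups of 3 replicates. The deposited values are FPKM, which the authors made with Trim Galore (trimming), HISAT2 (alignment to GRCm38), and featureCounts (counting), followed by scaling for gene length and library size. The annotation release and strand setting are not given in the sources used here. The table has 32352 lines for 32051 genes. The 301 repeated lines carry identical values, and 1 line per gene was kept. 0 value columns were left without a sample.

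With gene lengths from GENCODE (GRCm38), which covers 32003 genes, 98.4% to 98.6% of values per library came out as whole reads (within 0.05). The 13733 genes that averaged 0.1 FPKM or more were tested on log2(FPKM + 0.1) by limma 3.58.1 (R 4.3.3), in a single model of the 4 group means with a mean trend, two-sided, with Benjamini-Hochberg adjustment over all tested genes. Fold changes are on the log2(FPKM + 0.1) scale, which understates those of low genes. The test was checked on simulated data. With 3 libraries against 3, an exact permutation test of 1 gene cannot go below 0.1, so none is given.

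The members, gene lists, and alternatives were chosen with earlier results of these data known. All members were named, along with the ligand, partner, JAK, and STAT genes above the minimum, except 1 that is not reported here. From the other gene lists, not the cell type markers, genes past an adjusted p of 0.05 and 1.5-fold in any of the 5 pairwise comparisons were named, and for the 3 members with the largest range of group means among those averaging 1 FPKM or more (*Il15ra* averages less), the 3 most correlated genes. Cell type markers past both thresholds with EpA were named after their values were seen. The additive fit, the ratios between members, and *Cish* were added after the values were seen. Alternatives changed the pseudocount, the minimum, the scaling (TPM or median ratio), the empirical Bayes step, the groups fitted, the replicate block, the libraries (each left out in turn), and the test (voom on recovered reads). Figures were drawn with matplotlib.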

Additional observations from a re-analysis of the deposited data

How the results depend on the processing

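Under the alternatives, 817 of 850 log2 fold changes of members kept their direction where called and their side of the threshold, 32 lost the call, 1 gained it (*Il2ra*, EpA with fatostatin against EpA, voom on recovered reads, log2 0.046, limma adjusted p = 0.0226), and 0 called values changed sign. The 32 belong to *Il15ra* (EpA against DMSO), *Il2ra* and *Il2rg* (fatostatin against DMSO), *Il4ra* (EpA with fatostatin against EpA), and *Il2rg* (EpA with fatostatin against DMSO). With a fold of at least 1.5 required as well, the members called were 2 for EpA against DMSO, 0 for fatostatin against DMSO, 0 for EpA with fatostatin against EpA, 1 for EpA with fatostatin against fatostatin, and 1 for EpA with fatostatin against DMSO. That is by construction, since most changes were smaller. With each library left out in turn, the members called ranged from 6 to 7 for EpA against DMSO, from 3 to 5 for fatostatin against DMSO, from 2 to 3 for EpA with fatostatin against EpA, from 6 to 6 for EpA with fatostatin against fatostatin, from 6 to 7 for EpA with fatostatin against DMSO, and from 0 to 0 for the difference between the EpA effects. The shares of all tested genes were then 22.0 to 22.9%, 10.2 to 11.4%, 12 to 12.9%, 24.7 to 26.6%, 30.3 to 31.3%, and 0 to 0.0146% in the same order. With a minimum of 1 FPKM, these shares were 34.9, 18.8, 21.4, 37.7, 43.6, and 0.0777% in that order, and *Il15ra* could not be tested.

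The replicate numbers did not pair the libraries: over 18 pairs of groups and numbers, the correlation of deviations from the group means was -0.047 to 0.074. With a replicate block, the members called were 7, 5, 2, 6, 7, and 0 in the order of comparisons above, beside 26.7, 13.2, 15.2, 28.8, 34.9, and 0% of all tested genes, and the call lost was that of *Il4ra* for EpA with fatostatin against EpA (limma adjusted p = 0.0616). The 6 genes called over all genes for the difference between the EpA effects became 0 with the replicate block, 3 with TPM, 10 with a pseudocount of 0.01, 20 with voom, and 0 to 2 with a library left out. The cause was not tested. Depth limits *Il9r* and *Il15ra* most, and overlapping gene models limit *Il2rg* and, depending on the strand setting, *Il4ra*.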
